A study of Mus musculus with 12 samples.

Results

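The genes of the rod phototransduction cascade that were followed here are 9 of the 37991 genes in the deposited tables, chosen by symbol as the subunits of transducin (Gnat1, Gnb1 and Gngt1), of the rod phosphodiesterase (Pde6a, Pde6b and Pde6g) and of the rod cyclic nucleotide-gated channel (Cnga1 and Cngb1), together with Sag, which encodes rod arrestin. Each symbol matched 1 gene, and all 9 are autosomal, protein-coding and polymorphic between the strains, so each had a value in every F0 library and for both alleles in every F1 library. Retinas of male mice aged 8 weeks were sequenced as mRNA in 4 groups of 3 libraries, each library made from a pool of 6 to 8 retinas, so animals within a library cannot be told apart. The inbred F0 C57BL/6J mice are the standard laboratory strain, the inbred F0 Cast/EiJ mice are a wild-derived strain, F1 B6xCast mice had a C57BL/6J father and a Cast/EiJ mother, and F1 CastxB6 mice had a Cast/EiJ father and a C57BL/6J mother. No group carried an engineered allele or received a treatment according to the labels. F0 libraries were read on 1 lane and F1 libraries on 2.

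In rods, light leads to activation of the heterotrimeric G protein transducin, whose alpha subunit then relieves the inhibition of the phosphodiesterase by its gamma subunit. The phosphodiesterase hydrolyzes cyclic GMP, the cyclic GMP-gated channel of the outer segment closes, and the cell hyperpolarizes. Arrestin ends the signaling upstream of transducin, and it moves between the cell compartments with light. The proteins act in fixed complexes, which is why the ratios between their transcripts were examined beside their levels.

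Rod genes are known targets of CRX, a homeodomain factor, and NRL, a leucine zipper factor. RefSeq promoter windows on GRCm38.p6, from 250 bases before to 50 bases after the start of the gene, were found for 6 of the 9 genes (Gnb1, Gngt1, Pde6b, Cnga1, Cngb1 and Sag). The motif TAATCC (CRX and OTX2) or its reverse complement GGATTA was present in 7.06% of all 32851 windows of that length in the table, and it stood in the windows of 4 of the 6 genes. The motif TGCTGA (an NRL motif) or its reverse complement TCAGCA was present in 19.5% of all windows, and it stood in those of Pde6b and Sag. The 4 windows with TAATCC on either strand are shown, since they include the 3 genes that were higher for Cast/EiJ in both generations. Capitals mark the motifs, each window is written 5′ to 3′ on the strand of the gene, and the bases are those of the C57BL/6J reference, so they show no difference between the strains.
Sag, chr1:87803430-87803729 (+ strand): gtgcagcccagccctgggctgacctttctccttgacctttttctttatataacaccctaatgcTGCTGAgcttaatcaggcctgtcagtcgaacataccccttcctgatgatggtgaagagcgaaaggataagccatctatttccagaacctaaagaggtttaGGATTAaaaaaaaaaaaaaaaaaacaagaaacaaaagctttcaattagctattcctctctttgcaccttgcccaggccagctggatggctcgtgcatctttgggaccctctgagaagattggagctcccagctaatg
Gngt1, chr6:3993758-3994057 (+ strand): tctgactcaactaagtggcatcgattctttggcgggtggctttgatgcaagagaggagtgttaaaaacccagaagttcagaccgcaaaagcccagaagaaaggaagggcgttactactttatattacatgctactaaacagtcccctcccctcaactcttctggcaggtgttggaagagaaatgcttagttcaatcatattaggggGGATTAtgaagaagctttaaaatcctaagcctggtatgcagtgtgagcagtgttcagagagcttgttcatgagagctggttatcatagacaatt
Cngb1, chr8:95306536-95306835 (- strand): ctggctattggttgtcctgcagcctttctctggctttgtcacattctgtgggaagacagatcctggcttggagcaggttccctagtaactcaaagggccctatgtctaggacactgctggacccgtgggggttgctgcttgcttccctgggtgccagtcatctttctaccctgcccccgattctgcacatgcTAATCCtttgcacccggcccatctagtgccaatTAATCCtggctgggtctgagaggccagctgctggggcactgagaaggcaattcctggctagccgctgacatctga
Cnga1, chr5:72642703-72643002 (- strand): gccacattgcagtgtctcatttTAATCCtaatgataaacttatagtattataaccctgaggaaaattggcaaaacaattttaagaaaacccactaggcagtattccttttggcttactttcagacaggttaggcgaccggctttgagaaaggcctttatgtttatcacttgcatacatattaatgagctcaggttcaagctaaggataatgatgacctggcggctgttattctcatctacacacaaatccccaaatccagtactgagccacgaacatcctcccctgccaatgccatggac
In Sag the CRX and OTX2 motif began at base -87 and the NRL motif at -187, counted from the start of the gene. The motif began at -44 in Gngt1, at -58 and -25 in Cngb1, and at -228 in Cnga1. A match is a description of letters, and no binding was measured here.

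The depth of the libraries lay between 8158534 and 12363291 unique hits, the read pairs assigned to just 1 gene, or in F1 libraries to just 1 allele. Expression was given as count equivalents, the authors' normalized estimate of reads per gene, in which each F0 library and each allele of an F1 library has its own column of similar total, so that an F1 allele is on the scale of an F0 library. The 9 genes together took between 3.49% and 4.21% of the count equivalents of a column. The rod markers were Nrl, Nr2e3, Rp1, Prph2, Rom1 and Cnga1, the last of which is also 1 of the 9 genes. They summed to between 147960 and 160660 count equivalents in F0 C57BL/6J and to between 156670 and 162240 in F0 Cast/EiJ. Of these 6 markers, 1 passed the F0 test, Nr2e3 (higher in Cast/EiJ). Lens and pigment epithelium markers summed to no more than 312 count equivalents in any column, with Best1, Crygd, Bfsp1, Bfsp2 and Lim2 under 10 in every F0 library. Pigment epithelium markers summed to 241 to 283 in F0 C57BL/6J and to 88.0 to 133 in F0 Cast/EiJ, with Ttr and Rgr called lower. The sums for blood and microglia overlapped, at 605 to 793 and 496 to 792, with Hbb-b1 and Cx3cr1 called lower. Some markers of other retinal cells differed between the strains, where 33.8% of all genes tested were called in F0. Ganglion cell markers summed to between 13218 and 14639 in F0 C57BL/6J and between 8847 and 9777 in F0 Cast/EiJ, with 4 of 6 called lower, and amacrine cell markers to between 14382 and 15680 and between 17575 and 18428, with 3 of 6 called higher. The sums for Mueller glia overlapped, at 45633 to 55380 and 41284 to 47890, with 3 of 7 called lower (Glul, Apoe and Vim) and 1 higher (Aqp4). Those for bipolar cells also overlapped, at 17283 to 19885 and 17681 to 18376, with 1 of 7 called lower (Grm6) and 1 higher (Cabp5). Of 4 horizontal cell markers, 1 was called lower (Lhx1). The part of these cell types in the F0 values was not tested. In these bulk samples, fewer cells of a type and less RNA per cell cannot be told apart. In F1 B6xCast, replicate 1 had the lowest mean of both alleles for all 9 genes, and replicate 1 of F0 C57BL/6J, F0 Cast/EiJ and F1 B6xCast also differed more from replicates 2 and 3 over all genes (mean chi-square per gene 7.18 to 12.5) than these did from each other (1.88 to 3.20). The F0 and the allelic calls of the 9 genes did not change when any single library was left out. In F0, the unique hits per count equivalent of the 9 genes differed by at most 1.03-fold within a library, and the only annotated genes overlapping a member, the pseudogenes Gm13171 in Gnb1 and Rps2-ps10 in Pde6a, had no more than 87.0 count equivalents in F0.

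Levels per length ran over a wide range. In F0 C57BL/6J the order by mean FPKM was Gnat1, Gnb1, Sag, Pde6g, Pde6b, Pde6a, Gngt1, Cnga1 and Cngb1, from 5084 ± 128 FPKM (SD, n = 3) for Gnat1 to 96.1 ± 3.08 FPKM for Cngb1. Gnat1 ranked 6 among all genes by mean FPKM in that strain and Cngb1 ranked 400. The libraries of Sag and Pde6g overlapped, at 1657 ± 94.8 and 1643 ± 110 FPKM, as did those of Pde6a and Gngt1, at 532 ± 29.1 and 419 ± 69.7 FPKM, and no other neighbors in the order did. In F0 Cast/EiJ the order became Gnat1, Sag, Gnb1, Pde6g, Gngt1, Pde6b, Pde6a, Cnga1 and Cngb1, and no neighbors overlapped. Sag stood at 3792 ± 165 FPKM there, at rank 3 of all genes, and Gngt1 at 854 ± 51.2 FPKM. In F1 the Cast/EiJ alleles had the same order as F0 Cast/EiJ. The C57BL/6J alleles differed from F0 C57BL/6J in the places of Pde6g, 2195 ± 98.4 FPKM, and Sag, 1958 ± 193 FPKM (n = 6), whose libraries overlapped.

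**Figure D1:**
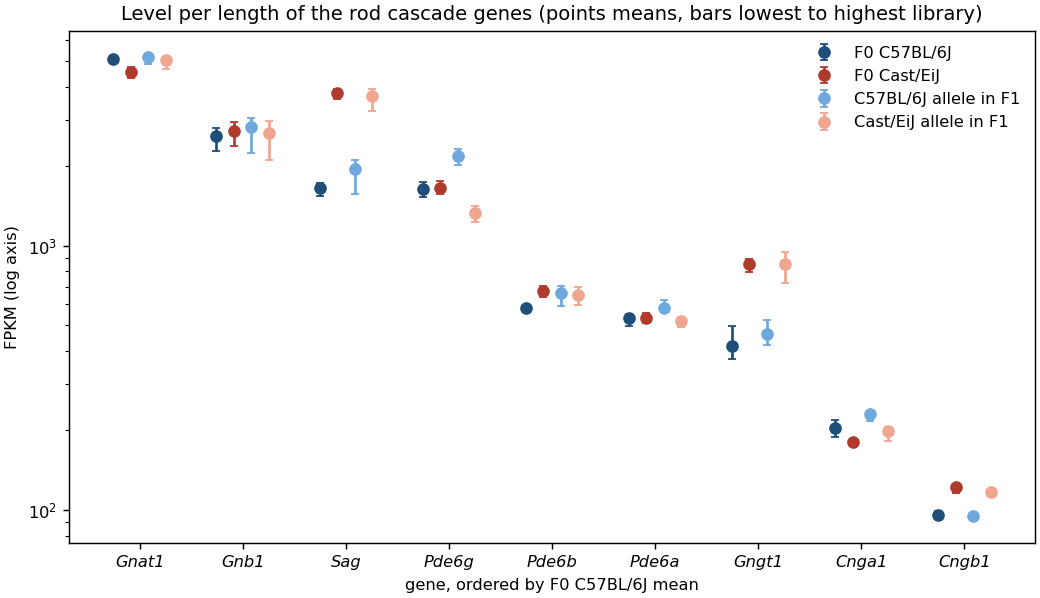
Mean FPKM on a log axis for the 9 genes in F0 C57BL/6J and F0 Cast/EiJ (3 libraries each) and for each allele over the 6 F1 libraries, with bars from the lowest to the highest library. Sag and Gngt1 sit higher for Cast/EiJ in F0 and in F1, whereas Pde6g splits by allele only in F1.

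The F0 comparison asks which of these genes differ between the retinas of the inbred strains. Of the 9 genes, 3 rose in Cast/EiJ (Sag, Gngt1 and Cngb1) and 0 fell at an adjusted p under 0.05 (limma on log2 of count equivalents plus 1, with Benjamini-Hochberg adjustment over 14452 autosomal genes). At an unadjusted p under 0.05, Cnga1 was lower in Cast/EiJ as well. Over all genes tested, 33.8% were called, and 17.2% were called and higher in Cast/EiJ. The median log2 difference was 0.03 over the 9 genes and 0.03 over all genes tested, and the median size of the difference was 0.18 against 0.26. In 6 of the 9 genes the libraries of the strains did not overlap, which held for 48.0% of all genes tested.

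Sag, the arrestin gene (chr1:89700255-89741733 on NCBI37, as are all gene positions here), had 53600, 48300 and 52100 count equivalents in the F0 C57BL/6J libraries and 110000, 119000 and 119000 in those of F0 Cast/EiJ. Every Cast/EiJ library was above every C57BL/6J library, and the log2 difference was 1.18 (SE 0.09, adjusted p = 2.31e-05, limma), 2.26-fold. A limma fit with no filter on low genes kept the difference at 1.18 but lost the call (adjusted p = 0.686). Among all genes tested, 89.9% had a smaller F0 difference in size.

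Gngt1, the gamma subunit of rod transducin (chr6:3943797-3947436), had 8110, 7830 and 10300 count equivalents in F0 C57BL/6J and 16600, 18700 and 18400 in F0 Cast/EiJ. The groups did not overlap, and the log2 difference was 1.04 (SE 0.11, adjusted p = 1.34e-04, limma), 2.06-fold. Its C57BL/6J libraries had the widest relative spread of the 9 genes in F0, with an SD of 15.5% of the mean.

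Cngb1, the beta subunit of the rod channel (chr8:97762945-97808081, minus strand), had 8260, 8620 and 8710 count equivalents in F0 C57BL/6J and 11200, 10400 and 11300 in F0 Cast/EiJ. The groups did not overlap, and the log2 difference was 0.36 (SE 0.07, adjusted p = 0.00336, limma), 1.29-fold.

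The other 6 genes did not pass the F0 test. Cnga1, the alpha subunit of the channel (chr5:72994935-73033991, minus strand), had 10200, 9610 and 11200 count equivalents in F0 C57BL/6J and 9020, 8910 and 8960 in F0 Cast/EiJ, which did not overlap. Its log2 difference was -0.20 (95% interval -0.37 to -0.04, adjusted p = 0.0612, limma), and edgeR on unique hits called it lower in Cast/EiJ (adjusted p = 0.0348). Pde6b, a catalytic subunit of the phosphodiesterase (chr5:108817410-108861416), had 32200, 31100 and 30500 in F0 C57BL/6J and 33300, 37400 and 35500 in F0 Cast/EiJ, again without overlap, at a log2 difference of 0.18 (-0.002 to 0.36, adjusted p = 0.115, limma).

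Gnat1, the alpha subunit of transducin (chr9:107576808-107581923, minus strand), had 201000, 213000 and 208000 count equivalents in F0 C57BL/6J and 175000, 184000 and 196000 in F0 Cast/EiJ. The groups did not overlap, but the 95% interval of the log2 difference, -0.42 to 0.09, held 0 (adjusted p = 0.283, limma). Gnb1, the beta subunit of transducin (chr4:154865470-154933378), had a log2 difference of -0.11 (-0.32 to 0.10), which was 0.06 with the deposited log expression, Pde6a, the other catalytic subunit (chromosome 18, 61380136 to 61449578), 0.03 (-0.16 to 0.21), and Pde6g, the inhibitory gamma subunit (chr11:120308919-120314814, minus strand), -0.03 (-0.21 to 0.16). Their strain groups overlapped. These intervals do not exclude differences of up to 0.32 on the log2 scale for Gnb1 or 0.21 for Pde6a and Pde6g.

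The F1 comparison sets the 2 alleles side by side in the same nuclei, where both see the same proteins. Of the 9 genes, 6 differed between the alleles, with Sag, Gngt1 and Cngb1 higher from the Cast/EiJ allele and Pde6g, Cnga1 and Pde6a lower. Over the 13414 genes tested, 47.0% were called, 23.5% with a higher and 23.5% with a lower Cast/EiJ allele. The median log2 difference was -0.05 over the 9 genes and 0.001 over all genes tested, and the median size was 0.22 against 0.20. In 8 of the 9 genes, all but Gnb1, the direction was shared by 6 of 6 libraries, which held for 42.0% of all genes tested. EdgeR on unique hits called all 9, with Gnat1, Gnb1 and Pde6b lower from the Cast/EiJ allele, while calling 55.7% of all genes tested.

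**Figure D2:**
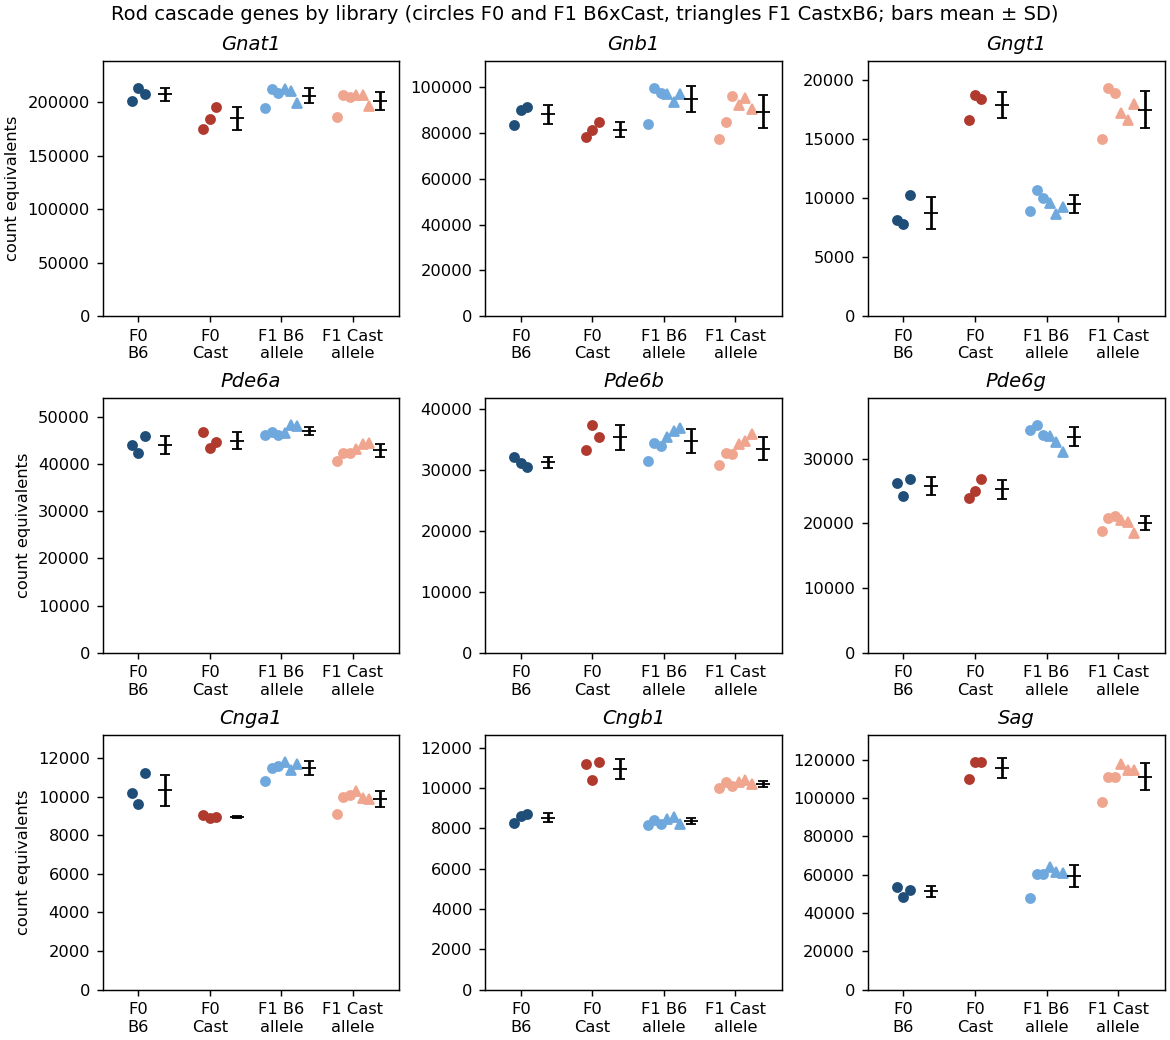
Count equivalents for each gene in each F0 library and for each allele in each F1 library (circles F0 and F1 B6xCast, triangles F1 CastxB6), with mean and SD beside the points, where B6 and Cast stand for C57BL/6J and Cast/EiJ. Sag, Gngt1 and Cngb1 are higher for Cast/EiJ in F0 and in F1, and the Pde6g alleles in F1 lie on either side of the F0 libraries.

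The Sag alleles spanned 47700 to 64000 count equivalents for C57BL/6J, with a median of 60800, and 97800 to 118000 for Cast/EiJ, with a median of 113000. No library of one allele overlapped the other, and the Cast/EiJ allele was higher by 0.92 on the log2 scale (SE 0.05, adjusted p = 3.02e-10, limma), 1.89-fold. The Gngt1 alleles spanned 8650 to 10700 for C57BL/6J, with a median of 9435, and 15000 to 19300 for Cast/EiJ, with a median of 17600, at a log2 difference of 0.88 (SE 0.07, adjusted p = 1.42e-08, limma). These alleles also did not overlap. The Cngb1 alleles spanned 8160 to 8540 for C57BL/6J, with a median of 8330, and 10000 to 10400 for Cast/EiJ, with a median of 10250. The log2 difference was 0.29 (SE 0.03, adjusted p = 2.14e-07, limma), and it varied between libraries only from 0.28 to 0.31.

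Pde6g, whose protein holds the phosphodiesterase in its inactive state, differed the other way. Its alleles spanned 31000 to 35200 count equivalents for C57BL/6J, with a median of 33600, and 18500 to 21100 for Cast/EiJ, with a median of 20400. The Cast/EiJ allele was lower in 6 of 6 libraries, at a log2 difference of -0.74 (SE 0.04, adjusted p = 2.29e-10, limma), 1.67-fold. The F0 libraries, at 26300, 24200 and 26900 for C57BL/6J and 24000, 25000 and 26900 for Cast/EiJ, lay between the alleles without overlapping either. The mean of both alleles in F1 was 26708 and the mean of both strains in F0 was 25550 count equivalents.

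Cnga1 and Pde6a were also lower from the Cast/EiJ allele, by smaller amounts. Cnga1 spanned 10800 to 11800 count equivalents for C57BL/6J, with a median of 11550, and 9100 to 10300 for Cast/EiJ, with a median of 9950, at a log2 difference of -0.22 (SE 0.04, adjusted p = 1.20e-04, limma). Pde6a spanned 46100 to 48200 for C57BL/6J, with a median of 46700, and 40700 to 44500 for Cast/EiJ, with a median of 42700, at -0.13 (SE 0.03, adjusted p = 0.00182, limma). Neither pair of alleles overlapped.

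The remaining 3 genes had allelic intervals that held 0 in this limma fit. Gnat1 had a log2 difference of -0.03 (-0.12 to 0.05), Pde6b -0.05 (-0.12 to 0.02) and Gnb1 -0.09 (-0.19 to 0.02). When limma was instead run on the ratio of the alleles within each library, which pairs them, it called all 9 genes, these 3 with a lower Cast/EiJ allele (adjusted p = 0.00686, 0.00554 and 0.0347), and 45.3% of all genes tested. Gnb1 had the fewest allele-specific reads for its level, between 11314 and 16712 unique hits per allele against 50995 to 85195 per F0 library. The authors' posterior SD of its log expression was between 0.0446 and 0.0859 in F1 and at most 0.00664 in F0.

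Unique hits gave the same order of the alleles without the estimation of shared reads. The Cast/EiJ share of allele-specific unique hits was 64.2% ± 0.741 (SD, n = 6) for Sag, 64.1% ± 1.16 for Gngt1 and 54.5% ± 0.267 for Cngb1. It was 37.4% ± 1.19 for Pde6g, 45.8% ± 0.425 for Cnga1 and 47.2% ± 0.421 for Pde6a, and it lay between 48.5% and 48.9% on average for Pde6b, Gnat1 and Gnb1. Over all genes tested the share was 49.5% to 49.6% in the 6 libraries.

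**Figure D3:**
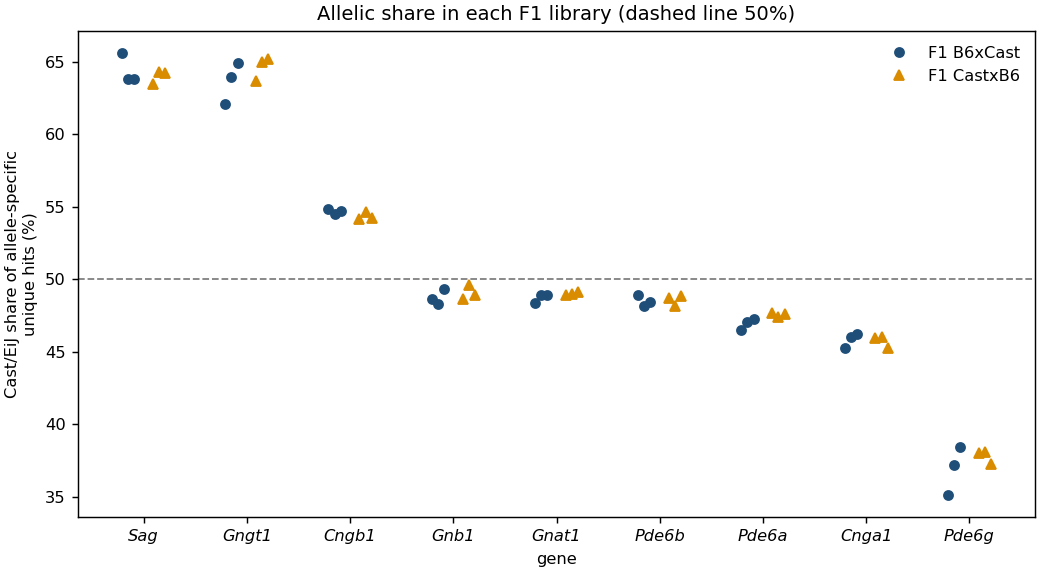
Percent of allele-specific unique hits that came from the Cast/EiJ allele, for each gene and F1 library, with circles for F1 B6xCast, triangles for F1 CastxB6 and a dashed line at 50%. Sag and Gngt1 lie near 64%, Cngb1 near 54.5% and Pde6g near 37.4% in both crosses.

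The reciprocal crosses tell whether it mattered which parent an allele came from. By limma, 0 of the 9 genes passed the parent-of-origin test at an adjusted p under 0.05 and 0 at an unadjusted p under 0.05, and edgeR on unique hits called 0, while 0.492% of all genes tested were called. The value, the allelic difference in F1 B6xCast minus that in F1 CastxB6 divided by 2, ran from -0.04 for Gnb1 to 0.01 for Sag on the log2 scale, and every 95% interval lay between -0.18 and 0.12. For Sag the allelic difference was 0.93 in F1 B6xCast and 0.90 in F1 CastxB6, for Gngt1 0.84 and 0.91, for Cngb1 0.29 in each, and for Pde6g -0.77 and -0.71.

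Whether the alleles in F1 kept the difference of the strains was tested in 1 model over F0 and F1. The signed F0 difference minus the signed allelic difference was called for 2 of the 9 genes, Pde6g and Pde6b, and was positive for both. In size the allelic difference of Pde6g was the larger one, at -0.74 against -0.03 in F0. Over all genes tested, 14.0% were called, and 5.64% were called with a positive sign, as Pde6g and Pde6b were. The median was 0.16 over the 9 genes and -0.003 over all genes tested.

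For Pde6g the strain difference minus the allelic difference was 0.71 on the log2 scale (SE 0.07, adjusted p = 6.31e-06, limma), with an adjusted p between 3.76e-06 and 8.76e-04 over the alternatives. Among all genes tested, 88.8% had a smaller difference of this kind in size. The generations also differ in lanes and in the transcriptome that reads were mapped to (strain for F0, hybrid for F1), and these cannot be told apart. Against F0 of its own strain, the C57BL/6J allele was higher by 0.37 and the Cast/EiJ allele was -0.34 on the log2 scale.

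For Pde6b the same quantity was 0.23 (SE 0.06, adjusted p = 0.0218, limma), between a strain difference of 0.18 and an allelic one of -0.05, neither of which was called on its own. This call was lost with edgeR on unique hits (adjusted p = 0.0928), with the deposited log expression (0.0960) and with no filter (0.0945, limma for both). It was also lost without F0 C57BL/6J replicate 2 (0.0502) or 3 (0.0595), F0 Cast/EiJ replicate 2 (0.0680) or F1 CastxB6 replicate 2 (0.0590), all by limma.

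The 3 genes that were higher for Cast/EiJ in both generations did not pass this test. The strain difference exceeded the allelic one by 0.26 for Sag (0.06 to 0.46, adjusted p = 0.0791, limma), by 0.17 for Gngt1 (-0.10 to 0.43) and by 0.07 for Cngb1 (-0.04 to 0.18). For Sag the call appeared without F1 B6xCast replicate 1, at 0.29 (adjusted p = 0.00793, limma). Cnga1 was at 0.01 (-0.13 to 0.15). Pde6a was at 0.16 (0.04 to 0.28, adjusted p = 0.0637, limma), and it was called without F0 C57BL/6J replicate 3 (0.0427) or F0 Cast/EiJ replicate 2 (0.0470) and with a higher minimum on the mean (0.0441).

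**Figure D4:**
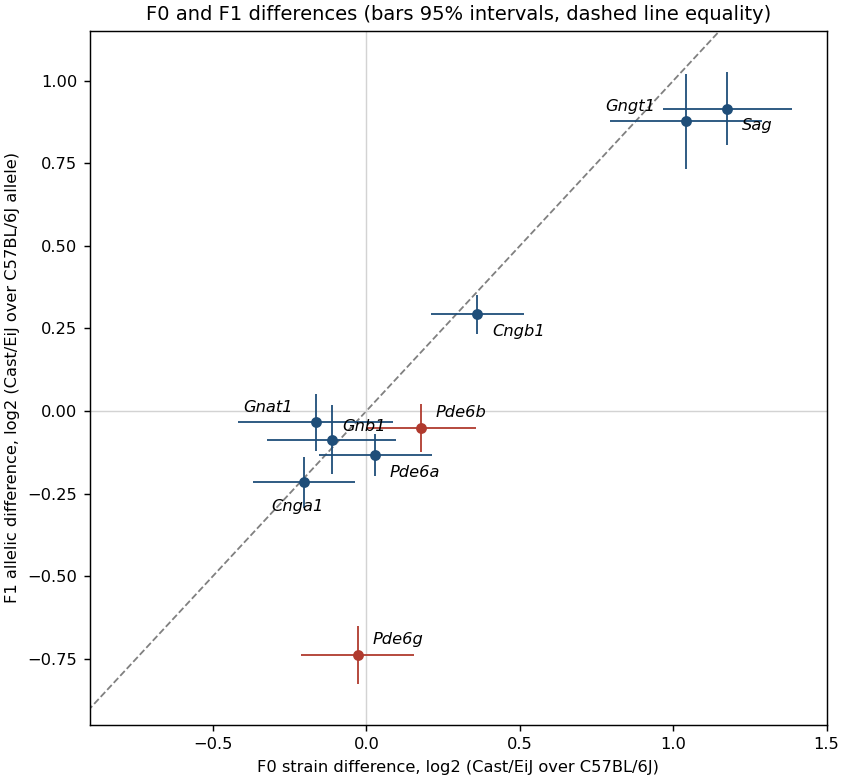
Log2 difference between the strains in F0 (x axis) against that between the alleles in F1 (y axis), Cast/EiJ over C57BL/6J, with 95% intervals from limma and a dashed line of equality. Sag, Gngt1 and Cngb1 lie in the upper right near the line, and Pde6g and Pde6b, in red, are the genes for which the 2 differences differed at an adjusted p under 0.05.

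The stoichiometry of the cascade was read as ratios of FPKM within a library, 7 in all. In F0, with 3 libraries against 3, an exact permutation test cannot go below a two-sided p of 0.1, so the F0 ratios cannot pass 0.05. In F1, an exact two-sided sign-flip test over the 6 libraries can reach 0.0312 at the least (0.0365 after Benjamini-Hochberg adjustment over the 7 ratios), and 6 of the 7 ratios were at that smallest value.

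Within transducin, the ratio of Gngt1 to Gnat1 was 0.0781, 0.0716 and 0.0976 in F0 C57BL/6J and 0.184, 0.198 and 0.183 in F0 Cast/EiJ. The strains did not overlap, at a log2 difference of 1.20 (exact permutation p = 0.1, adjusted 0.14), and in F1 the Cast/EiJ alleles had a ratio higher by 0.91 ± 0.06 (SD, n = 6, exact p = 0.0312). The ratio of Gnb1 to Gnat1 was 0.511 ± 0.0411 in F0 C57BL/6J and 0.597 ± 0.0389 in F0 Cast/EiJ, a log2 difference of 0.23 that was 0.05 when taken from count equivalents or unique hits. In F1 it differed by -0.04 ± 0.15 between the alleles (exact p = 0.656), with libraries on both sides of 0.

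Within the phosphodiesterase, Pde6g stood to the sum of the catalytic subunits as 1.47 ± 0.0758 in F0 C57BL/6J and 1.37 ± 0.0805 in F0 Cast/EiJ, and the strains overlapped (log2 difference -0.10, exact permutation p = 0.3). From the alleles of F1 the ratio was 1.77 ± 0.118 for C57BL/6J and 1.14 ± 0.0852 for Cast/EiJ, a log2 difference of -0.63 ± 0.05 (n = 6, exact p = 0.0312). The ratio of Pde6a to Pde6b was 0.913 ± 0.0457 and 0.790 ± 0.0747 in the F0 strains, which overlapped (exact permutation p = 0.2). Between the alleles it differed by -0.15 ± 0.10 (n = 6, exact p = 0.0312), from -0.35 to -0.09, a mean that was -0.08 from count equivalents and -0.07 from unique hits.

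The channel ratio, Cngb1 to Cnga1, was 0.459, 0.526 and 0.438 in F0 C57BL/6J and 0.681, 0.647 and 0.693 in F0 Cast/EiJ. The log2 difference was 0.51 in F0 (exact permutation p = 0.1) and 0.51 ± 0.03 between the alleles (n = 6, exact p = 0.0312). Sag stood to Gnat1 as 0.326 ± 0.0260 in F0 C57BL/6J and 0.837 ± 0.0292 in F0 Cast/EiJ, a log2 difference of 1.36 (exact permutation p = 0.1), and the alleles differed by 0.95 ± 0.08 (n = 6, exact p = 0.0312).

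Between complexes, Gnat1 stood to the sum of Pde6a and Pde6b as 4.57 ± 0.264 in F0 C57BL/6J and 3.76 ± 0.194 in F0 Cast/EiJ, which did not overlap (log2 difference -0.28, exact permutation p = 0.1). Between the alleles it was 0.05 ± 0.02 (n = 6, exact p = 0.0312), of the opposite sign. Whether the F0 and F1 ratios differ from each other was not tested.

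**Figure D5:**
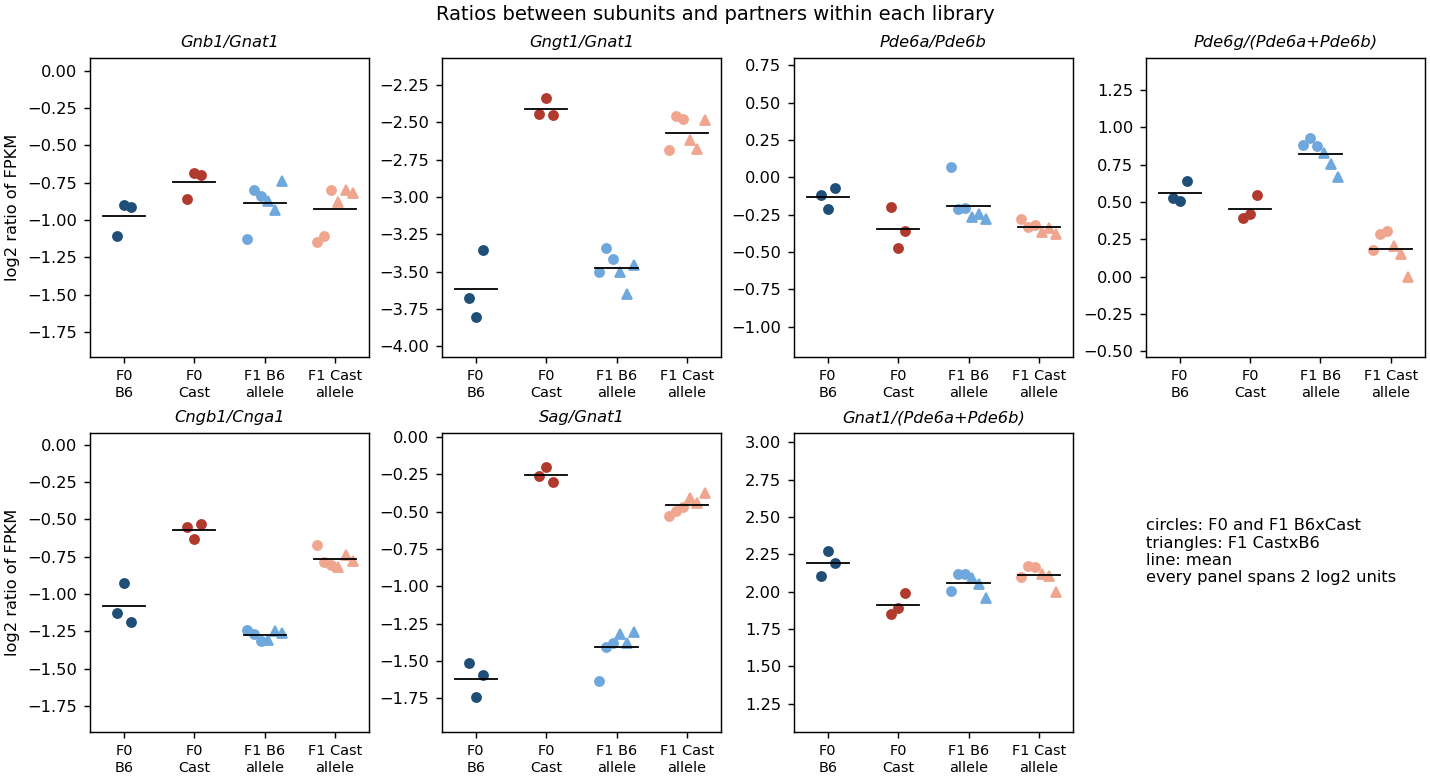
Log2 of 7 FPKM ratios in each F0 library and for each allele of each F1 library (circles F0 and F1 B6xCast, triangles F1 CastxB6, lines for the means), with every panel spanning 2 log2 units. The ratios with Gngt1, Cngb1 and Sag in the numerator separate Cast/EiJ from C57BL/6J in F0 and in F1, and that of Pde6g separates the alleles in F1 while the F0 strains overlap.

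Other genes of the rod pathway showed both directions. Of 11 listed (Grk1, Rcvrn, Rgs9, Gnb5, Rgs9bp, Guca1a, Guca1b, Gucy2e, Gucy2f, Slc24a1 and Pdc), 10 were autosomal and tested. In F0, 2 rose in Cast/EiJ and 3 fell, with a median of -0.03 on the log2 scale. Of all genes tested, 33.8% were called in F0, 47.0% between the alleles and 14.0% for strain against allelic differences. Guca1a, a guanylate cyclase activator, rose by 0.95 (SE 0.19, adjusted p = 0.00500, limma), Rcvrn, the calcium sensor recoverin, rose by 0.37 (SE 0.12, adjusted p = 0.0416), and Rgs9bp, the anchor of the complex that shuts off transducin, fell by 0.46 on the log2 scale (SE 0.06, adjusted p = 6.07e-04). Between the alleles 3 were higher from Cast/EiJ and 4 lower, led by Rcvrn at 0.60 (SE 0.07, adjusted p = 3.76e-06, limma), Guca1a at 0.47 (SE 0.13, adjusted p = 0.00791) and Gnb5, a partner of Rgs9, at -0.25 (SE 0.05, adjusted p = 6.22e-04). The strain and allelic differences differed for Rgs9bp, by -0.31, and for Pdc, which encodes phosducin, by -0.28.

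The cone counterparts of the 9 genes did not share their directions as a group. Of the 8 listed (Gnat2, Gnb3, Gngt2, Pde6c, Pde6h, Cnga3, Cngb3 and Arr3), 7 were tested in F0 and 6 between the alleles. The shares called among all genes tested were 33.8% in F0, 47.0% between the alleles and 14.0% for strain against allelic differences. In F0, Cngb3 rose in Cast/EiJ by 0.52 (SE 0.09, adjusted p = 0.00280, limma), Cnga3 fell by 1.21 on the log2 scale (SE 0.12, adjusted p = 1.02e-04) and Pde6c fell by 0.46 on the log2 scale (SE 0.07, adjusted p = 0.00125). In F1, Cngb3 (0.73, SE 0.06) and Gnb3 (0.39, SE 0.07) were higher and Cnga3 (-0.61, SE 0.10) lower from the Cast/EiJ allele, with adjusted p-values of 6.29e-08, 3.19e-04 and 7.05e-05 (limma). The differences in F0 and F1 differed for Cnga3 and Pde6c, by -0.60 and -0.50. So for the channel beta subunits both the rod and the cone gene were higher for Cast/EiJ in both generations, and of the alpha subunits Cnga3 was lower in both.

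Gngt2, the cone gene that corresponds to Gngt1, had a log2 difference of -0.41 in F0 (interval -0.74 to -0.09, adjusted p = 0.0541, limma), against 1.04 for Gngt1. Pde6h, which corresponds to Pde6g, was at 0.15 between the alleles (adjusted p = 0.0602, limma), against -0.74 for Pde6g. Arr3, which corresponds to Sag, is X-linked and was not tested, and its F0 means were 2513 ± 733 count equivalents in C57BL/6J and 1633 ± 425 in Cast/EiJ (n = 3 each). The cone markers Opn1sw, Arr3, Gnat2, Pde6c, Pde6h and Gngt2 summed to between 11911 and 13463 count equivalents in F0 C57BL/6J and between 8613 and 9314 in F0 Cast/EiJ, and their part in the F0 values of the cone genes was not tested. Of the rod gene transcription factors Crx, Nrl, Nr2e3, Rorb and Otx2, Nr2e3 was called higher and Rorb lower in F0 Cast/EiJ, with a sum of 50150 to 55000 count equivalents in C57BL/6J and 51890 to 52520 in Cast/EiJ.

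The genes with the most similar pattern were sought among 10043 autosomal genes whose mean reached 100 count equivalents in F0 and in F1, by Pearson's r over 18 columns (6 F0 libraries and 2 alleles of 6 F1 libraries) after centering F0 and F1 separately. The 2 alleles of an F1 library share that library, so the columns are not independent, and the values are descriptions. Strain and allele differences were left in, so genes that share a steady difference of this kind reach a high r from it alone. For Sag the closest were Mzt2 (r = 0.989), Gabra2 (0.987) and Ankrd6 (0.982), for Gngt1 they were Arl13b (0.980), Optn (0.980) and Hopx (0.978), and for Cngb1 they were Ret (0.983), Adipor1 (0.982) and Adck4 (0.982). None of these is another member of the cascade. Sag, Gngt1 and Cngb1 were close to each other, with r of 0.971 between Sag and Cngb1, 0.969 between Sag and Gngt1 and 0.956 between Gngt1 and Cngb1. The other pairs of members had r from -0.833 between Cnga1 and Cngb1 to 0.774 between Pde6g and Cnga1. Adipor1, among the genes closest to Cngb1, had mean count equivalents of 8580 in F0 C57BL/6J and 12467 in F0 Cast/EiJ. Its alleles had means of 9092 for C57BL/6J and 12467 for Cast/EiJ.

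For Pde6g the closest were Gm12696 (r = 0.982), Dnajb6 (0.980) and Gm12481 (0.978). Dnajb6 had means of 1373 and 1530 count equivalents in the F0 strains, and 1997 for the C57BL/6J and 773 for the Cast/EiJ allele. Gm12696 and Gm12481, both annotated as pseudogenes, had 248 and 332 and then 194 and 208 in the F0 strains. Their Cast/EiJ alleles were at 45.5 and 0.0961 count equivalents in F1, against 507 and 375 for the C57BL/6J alleles. These genes share with Pde6g a lower Cast/EiJ allele in F1 that the F0 strains do not show.

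The other 5 genes had less close neighbors. The closest genes were Eef1g, Ddx1 and Dner for Cnga1 (r = 0.944, 0.940 and 0.935), Pfdn1, Ctsb and Lrpap1 for Gnat1 (0.937, 0.928 and 0.917), and AI462493, Ankrd50 and Cndp2 for Gnb1 (0.918, 0.910 and 0.910). For Pde6a they were BC003331, Mcm3ap and 4933439F18Rik (0.879, 0.867 and 0.859), and for Pde6b they were Tdrd7, Tmco3 and Sv2b (0.867, 0.823 and 0.786).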

How the data were processed

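The authors trimmed the reads with Trim Galore 0.2.6, aligned them with Bowtie 0.12.9 to strain or hybrid transcriptomes of Ensembl on mm9 (NCBI37) and estimated expression with MMSEQ. Count equivalents are signal values that the authors had estimated and scaled across libraries before depositing them, with large values written to 3 significant digits. The natural log of expression was deposited by the authors, and its exponential was taken as FPKM. Unique hits are a count deposited without normalization, and the authors' posterior SD stands beside the log. The authors' deposited table of model probabilities holds their own comparisons and was used here only for whether a gene is polymorphic. In all, 36 columns were not used.

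The members and gene lists were chosen with earlier results of these data known. A gene of the lists is not reported here, and its lists were counted and summed without it. F0 strains were compared with limma on log2 of count equivalents plus a pseudocount of 1, over autosomal genes with at least 10 in at least 3 libraries. Alleles were compared in 1 model of F0 columns and F1 alleles with the library as block (consensus correlation 0.135), over autosomal, polymorphic genes averaging 10 or more allele-specific unique hits. The parent-of-origin value is the difference between the crosses divided by 2. Pooled retinas were the replicates, and p-values measure the spread between pools. No pair of libraries in a group was alike within counting noise (mean chi-square per gene of unique hits 1.68 to 12.5).

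All 9 members were named, with up to 3 called genes of each list and comparison, cone counterparts of called members, and the 3 genes most like each member. Alternatives were edgeR on unique hits, edgeR and DESeq2 on rounded count equivalents, TMM, a pseudocount of 5, no filter, a mean of at least 50, the deposited log expression, within-library ratios, a replicate block, adjusted p under 0.01, and each library left out. The fits were tested on simulated data. Tools were R 4.3.3, limma 3.58.1, edgeR 4.0.16, DESeq2 1.42.0, statmod 1.5.0, matplotlib 3.10.9, pandas 2.3.3, scipy 1.17.1, numpy 2.4.6 and Python 3.11.15.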

Additional observations from a re-analysis of the deposited data

Results flagged for a closer look

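For Pde6g the F0 strain difference and the F1 allelic difference differed, by 0.711 on the log2 scale (adjusted p = 6.31e-06, limma), with the Cast/EiJ allele lower in 6 of 6 F1 libraries and overlapping F0 strains. For Pde6b they differed by 0.229 (adjusted p = 0.0218, limma), a call that several alternatives lost.

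In F1 B6xCast replicate 1 the log2 ratio of the Sag alleles was 1.04, apart from the other 5 libraries by a gap of 0.744 of the range, and that of the Gnat1 alleles was -0.0682, apart by 0.629 of the range. The critical value for 6 libraries is 0.625, and chance passes it in about 1 of 20 groups. Without that library the Sag allelic difference was 0.89 (adjusted p = 8.07e-11, limma) and that of Gnat1 -0.03 (adjusted p = 0.619).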

How the results depend on the processing

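The 3 F0 calls and the 6 allelic calls of the 9 genes kept their direction under every alternative run. The one change among them was Sag in F0, which limma with no filter did not call (adjusted p = 0.686, the cause was not tested). Calls over all genes in F0 moved from 4887 to 3161 with no filter and to 2762 at an adjusted p under 0.01. For strain against allelic differences they moved from 1872 to 915 at an adjusted p under 0.01, and parent-of-origin calls moved from 66 to 38 with within-library ratios. Of the 9 genes, 1 rather than 2 was called for strain against allelic differences at an adjusted p under 0.01, with no filter, with the deposited log expression and with edgeR on unique hits, and between 1 and 3 were called when a library was left out. The F0 log2 difference of the Gnb1 to Gnat1 ratio was 0.23 from FPKM, 0.0527 from count equivalents and 0.0522 from unique hits.

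Cnga1 was called lower in F0 Cast/EiJ with TMM (adjusted p = 0.0363, limma), edgeR on rounded count equivalents (0.0418) and DESeq2 (0.0248), besides edgeR on unique hits. With the replicate number as a block in limma, 5 of the 9 genes were called in F0 (Cnga1 and Pde6b in addition) and 6376 genes in all. Samples with the same number in the F0 strains had deviations that correlated at 0.278, 0.0607 and 0.193, so the numbers do not pair them. Within-library ratios called Gnat1, Pde6b and Gnb1 between the alleles, as did edgeR on unique hits. The block changed no allelic or parent-of-origin call of the 9 genes. Allele-specific unique hits limit the F1 values, and were fewest for Gngt1, at 1741 for an allele in 1 library.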
